A study of Homo sapiens with 2 samples.

Results

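The 10 genes described here belong to the signalling system of the interleukin-6 cytokine family and were taken by symbol from the deposited gene table: the cytokine genes IL11, LIF and IL6, the receptor genes IL6ST, LIFR, OSMR, IL6R and IL11RA, the transcription factor gene STAT3 and the inhibitor gene SOCS3. All 10 were found among the 50868 genes of the table, and all 10 were among the 14686 measured genes, those that reached 1 CPM (counts relative to library depth) in at least 1 library. Messenger RNA had been sequenced from 2 cultures labelled HepG2, a human liver cancer line, both grown in DMEM with serum. The parental culture carried the genotype label WT and no treatment. The resistant culture carried the genotype label sorafenib resistance and the treatment sorafenib, a kinase inhibitor given for liver cancer, and had been taken from 2.5 µM in steps of 0.5 µM to 7 µM. Not given in the sources used here were the presence of the drug in the medium at harvest and whether the resistant line was 1 clone.

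Cytokines of this family act through a shared receptor chain, gp130, which IL6ST encodes. Interleukin-6 and interleukin-11 first bind chains of their own, encoded by IL6R and IL11RA, whereas LIF brings gp130 together with the LIF receptor chain, and oncostatin M brings it together with the chain from OSMR or LIFR. Janus kinases bound to these chains then phosphorylate STAT3, which enters the nucleus and induces, among others, SOCS3, whose product binds gp130 and damps the signal. In hepatocytes the pathway is known for switching on the acute phase proteins of the plasma.

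Each group had 1 library, so no value has a replicate check and no test of the conditions was possible. The counts summed to 18067146 (parental) and 16811907 (resistant). Intervals are exact 95% intervals that cover counting error only, and PCR copies are not independent molecules. Of 12 markers of the hepatocyte, 9 had 0 counts in both libraries, among them ALB, AFP and TTR, and the 12 together had 6 parental and 4 resistant counts. HepG2 is known to express albumin and alpha-fetoprotein, so these counts go against the label, and the identity of the line was not tested. HepG2, parental and resistant are used here as the labels of the libraries. Markers of leukocytes, which make several cytokines of this family, were at 0 counts in both libraries for 5 of 8 genes, PTPRC among them, and the list summed to 15.5 and 22.9 CPM. Its 2 measured members were higher in the resistant library by their counting intervals, CD68 with 98 and 156 counts, 1.72-fold (1.33 to 2.24), and CSF1R with 176 and 223 counts, 1.37-fold (1.12 to 1.68). Of the 10 fibroblast markers 6 were measured, COL1A2 and PDGFRA were at 0 counts in both, and the list summed to 423 parental and 438 resistant CPM. Of its 6 measured genes 5 had a log2 ratio above 0 and 1 below. LUM was the farthest from 0, at 2.51-fold in the resistant library (1.96 to 3.24). COL3A1, with the most counts of the list, was at 0.896-fold (0.855 to 0.939). The 6 endothelial markers summed to 3.81 and 6.68 CPM. Of these 3 were measured, 2 above 0 and 1 below, with CDH5 at 20 and 72 counts and ERG at 19 and 11. Of the 6 epithelial markers EPCAM was at 0 counts in both, CDH1 at 5 and 20 counts and KRT19 at 14 and 12. The list summed to 3238 and 4005 CPM, nearly all from KRT7 (1892 and 2516), KRT8 (799 and 817) and KRT18 (547 and 670). The part of such cells in the values below was not tested.

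The comparison asked how these genes stood in cells selected to grow in sorafenib against the parental cells. IL11 was higher in the resistant library under a rule of size, which asks for a log2 ratio of 1 or more between CPM plus 1 of the libraries. It was the 1 member of 10 past that rule as higher, where 1.31% of all measured genes were. No member was past the rule as lower, where 0.994% of measured genes were. By counting error alone the fold lay wholly above 1 for 5 members, IL11, LIF, LIFR, OSMR and SOCS3, against 21.1% of measured genes. It lay wholly below 1 for IL6R, against 21.2% of measured genes. The intervals of IL6, IL11RA, IL6ST and STAT3 held 1. The median log2 ratio of the 10 members was 0.26, and that of all measured genes was -0.0018.

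**Figure D1:**
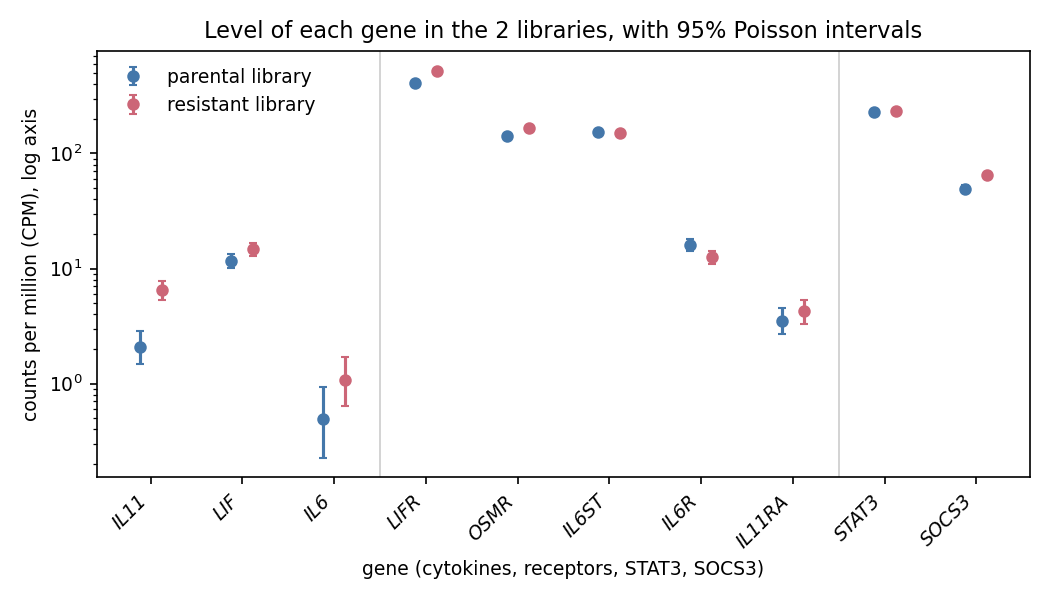
Level of each of the 10 genes in CPM on a log axis, with blue points for the parental and red points for the resistant library. Bars are exact 95% Poisson intervals of the counts, and the bars of IL11 lie apart (1.48 to 2.88 CPM and 5.34 to 7.84 CPM).

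**Figure D2:**
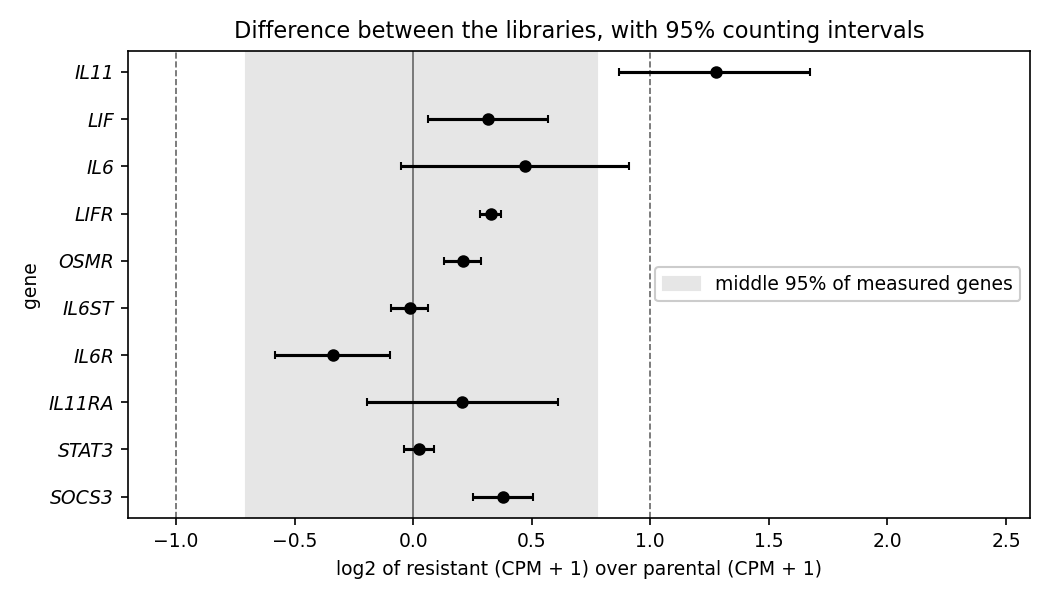
Log2 ratio of resistant over parental CPM plus 1 for each gene, with 95% counting intervals. The grey band holds the middle 95% of measured genes, -0.71 to 0.78, the dashed lines mark the size rule, and the point of IL11 alone among the 10 lies past it.

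IL11 encodes interleukin-11, a cytokine made mainly by stromal and epithelial cells. The gene (ENSG00000095752; chromosome 19, 55364389 to 55370463, minus strand, build GRCh38) had 38 parental and 109 resistant counts, or 2.10 CPM (1.48 to 2.88) and 6.50 CPM (5.34 to 7.84). The resistant library was the higher, and the intervals of the levels did not overlap. The log2 ratio of 1.28 had a counting interval of 0.87 to 1.67, so its lower end lay within the size rule. Of all measured genes 0.654% had a ratio at least as high. Genes with about as many counts as IL11 passed the rule more often than measured genes as a whole. Among the 1223 measured genes with 100 to 200 counts over both libraries, as IL11 had, 2.53% were past it as higher and 1.39% as lower. With a pseudocount of 5 in place of 1 the log2 ratio was 0.70, and on the deposited FPKM (counts relative to gene length and library depth) it was 0.82, both within the size rule. In the authors' deposited table IL11 had a log2 fold change of 1.62, formed without a pseudocount, and was the 1 member called UP.

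The IL11 promoter is shown because IL11 was the member past the size rule and its window holds a match to the AP-1 motif TGANTCA, which reads the same on both strands. The window comes from RefSeq on build GRCh38.p14 and runs from 250 bases before to 50 bases after the transcript start, chr19:55370414-55370713 on the minus strand. It is written 5′ to 3′ with the match in capitals.
IL11 promoter: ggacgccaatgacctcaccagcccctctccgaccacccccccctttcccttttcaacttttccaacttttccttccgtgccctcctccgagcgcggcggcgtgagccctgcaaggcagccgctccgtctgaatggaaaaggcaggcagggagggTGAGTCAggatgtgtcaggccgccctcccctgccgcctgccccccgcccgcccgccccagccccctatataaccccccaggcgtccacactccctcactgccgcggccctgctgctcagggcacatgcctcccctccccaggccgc
The match, TGAGTCA, lies at -96 to -90 from the start. AP-1 is the FOS and JUN family of transcription factors, which growth factor and stress signals induce. Of 35116 promoter windows of this length, 7.71% held the motif. Of the members 9 had windows in the table, 13 windows together, and LIF had none. The motif was in 3 of these 13 windows. OSMR and IL6R also held a TGANTCA match, at 3 to 9 and 37 to 43 bases after the start. The STAT motif TTCNNNGAA, which also reads the same on both strands, was in 7.66% of all windows. Among the 13 member windows 2 held it, both of LIFR, at -165 to -157 and at -182 to -174 from different starts. Binding at these motifs was not measured.

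LIF encodes leukaemia inhibitory factor, a cytokine known for keeping mouse embryonic stem cells undifferentiated and for inducing acute phase proteins in hepatocytes. The gene (chromosome 22, 30240447 to 30246851) had 211 parental and 247 resistant counts, or 11.6 and 14.7 CPM. LIF was at 1.27-fold in the resistant library (1.05 to 1.53), a small difference with a lower bound close to 1. Of measured genes 13.0% had a log2 ratio at least as high as its 0.32. The interval of IL11, 2.13 to 4.61-fold, lay above that of LIF.

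IL6 encodes interleukin-6, the main inducer of the acute phase response. The gene (chromosome 7, 22725884 to 22732002) had 9 parental and 18 resistant counts, 0.497 and 1.07 CPM. It was measured only because the resistant level passed 1 CPM. The ratio was 2.16-fold with an interval of 0.922 to 5.46, so a difference in either direction was not detectable at this depth. The log2 ratio of 0.47 became 0.98 with a pseudocount of 0.1. On the deposited FPKM scale LIF made up 79.0% of the summed parental level of the 3 cytokine genes and 61.6% of the resistant one. IL11 made up 17.9% and 34.2%, and IL6 3.13% and 4.18%. Per kilobase of merged exons, a length described below, these shares were 74.1% and 55.7% for LIF, 19.8% and 36.5% for IL11, and 6.06% and 7.79% for IL6. Per kilobase of the longest coding transcript IL6 made up 7.78% and 9.68%. LIF remained the most abundant of the 3 in both libraries, at 4.41 times the parental and 1.80 times the resistant FPKM of IL11.

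Among the receptor genes LIFR, the LIF receptor chain that also serves oncostatin M, had the most counts. LIFR (chromosome 5, 38474963 to 38608354) had 7500 parental and 8709 resistant counts, 414 and 520 CPM, and ranked 283 and 192 by count among all genes. It was at 1.26-fold in the resistant library (1.22 to 1.29). The interval is narrow because of the depth, and the difference was still well within the size rule, with 12.3% of measured genes at least as high. OSMR, the oncostatin M receptor chain, lies on the same arm of chromosome 5, 38845858 to 38945596. OSMR had 2584 and 2767 counts, 143 and 165 CPM, or 1.16-fold (1.10 to 1.22).

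IL6ST, the gene of the shared chain gp130 (chromosome 5, 55935095 to 55994993), had 2763 and 2532 counts, 152 and 151 CPM. Its ratio was 0.991-fold (0.938 to 1.05). IL6R, the interleukin-6 binding chain (chromosome 1, 154405193 to 154469450), had 292 and 210 counts, 16.1 and 12.5 CPM. IL6R was the 1 member whose interval lay below 1, at 0.777-fold (0.648 to 0.931), or 1.29-fold lower in the resistant library. Of measured genes 10.5% had a log2 ratio as low as its -0.34. IL11RA, the interleukin-11 binding chain (chromosome 9, 34650702 to 34661892), had 64 and 71 counts, 3.53 and 4.24 CPM, a ratio of 1.20-fold (0.843 to 1.71). The receptor genes thus stood between 0.777-fold and 1.26-fold, below the 3.10-fold of IL11, and the interval of IL11 lay above that of each of them.

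STAT3, the transcription factor that gp130 signals activate by phosphorylation, had 4193 and 3949 counts (chromosome 17, 42313324 to 42388568), 231 and 236 CPM. Its ratio was 1.02-fold (0.975 to 1.06). Messenger RNA does not show phosphorylation, so the activity of STAT3 was not measured. SOCS3, the feedback inhibitor that STAT3 induces (chromosome 17, 78356778 to 78360077), had 899 and 1086 counts, 49.6 and 64.8 CPM. SOCS3 was at 1.31-fold in the resistant library (1.19 to 1.43), and 10.0% of measured genes had a log2 ratio at least as high as its 0.38. Both intervals are narrow, and that of SOCS3 lay above that of STAT3.

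Levels of different genes compare only per length, and the order of the members depended on the length used. In deposited FPKM the parental order was LIFR at 28.8, OSMR at 18.7, SOCS3 at 16.1, STAT3 at 15.8, IL6ST at 5.70, LIF at 2.56, IL6R at 1.65, IL11 at 0.581, IL11RA at 0.475 and IL6 at 0.102. In the resistant library LIFR stood at 35.9, OSMR at 21.6, SOCS3 at 20.9, STAT3 at 16.0, IL6ST at 5.62 and LIF at 3.22. There IL11 at 1.79 had passed IL6R at 1.27, above IL11RA at 0.567 and IL6 at 0.218. The gene length behind the FPKM equalled, within 1%, the summed length of all distinct GENCODE 29 exons for all 10 members. This sum counts a base again for every different exon that covers it. For IL6ST it was 26816 bases, 2.89 times the 9292 bases that its merged exons cover, and for OSMR 7633 against 7174 bases. The deposited FPKM therefore understates IL6ST relative to OSMR.

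Per kilobase of merged exons, an alternative chosen after the data were seen, IL6ST stood at 16.5 and 16.2 in the parental and resistant libraries. On that scale OSMR stood at 19.9 and 22.9, STAT3 at 26.3 and 26.7, SOCS3 at 18.2 and 23.6, and LIFR at 35.0 and 43.7. LIFR was thus 5.05 times IL6ST in deposited parental FPKM and 2.13 times per merged kilobase. STAT3 moved from place 4 to place 2 among the members. Per kilobase of the longest coding transcript STAT3 was first in the parental library at 46.0, ahead of LIFR at 41.1, and the order of these 2 was the other way in the resistant library, at 46.5 and 51.3. Under each of these 3 lengths IL6ST took place 5 and LIF place 6 in both libraries, IL6 was last, and IL11 stood above IL6R in the resistant library and below it in the parental. IL11RA, at 0.829 and 0.989 per merged kilobase, was the least abundant receptor gene under each length.

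**Figure D3:**
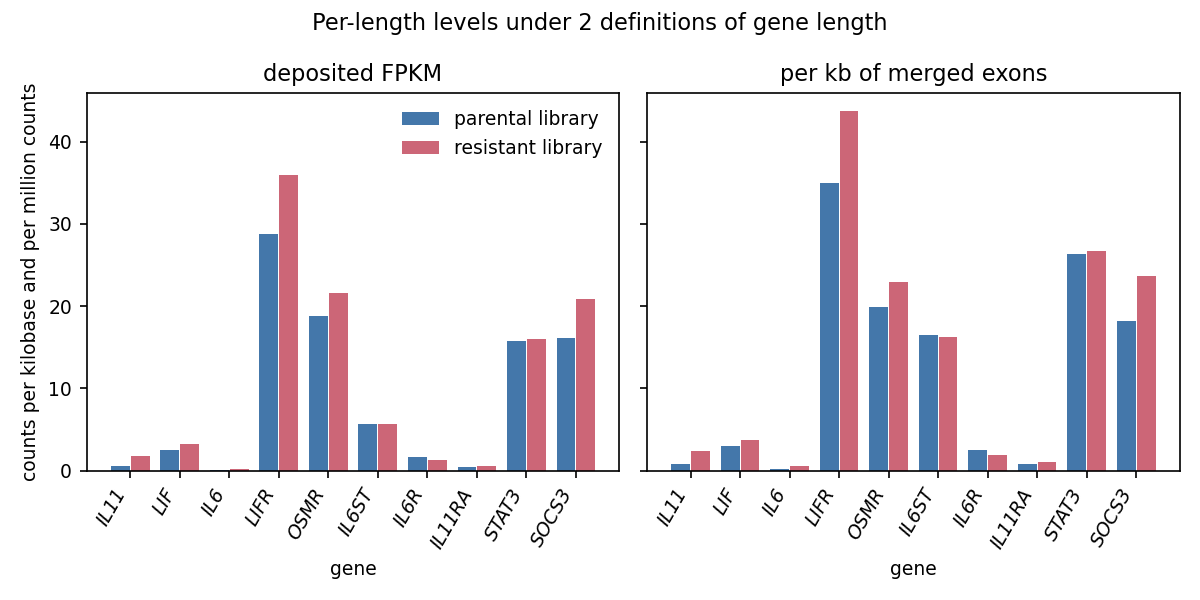
Per-length level of each gene relative to library depth, with the deposited FPKM on the left and counts per kilobase of merged exons on the right. Blue bars are the parental and red bars the resistant library, and IL6ST stands at 5.70 and 5.62 on the left and at 16.5 and 16.2 on the right.

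Several members overlap other genes, and strand use in the authors' counting was not given in the sources used here. IL11, STAT3 and SOCS3 overlapped no other gene of the table. The antisense genes IL6-AS1, LIF-AS1, AC004264.1 at LIF and AC008914.1 at IL6ST were listed at 0 counts in both libraries, as was the pseudogene PSMD8P1 within IL6R. IL6R-AS1 had 5 and 3 counts. LIFR-AS1, which runs against LIFR over 51569 bases, had 156 and 154 counts beside the 7500 and 8709 of LIFR. OSMR overlaps the end of RICTOR, a subunit gene of the kinase complex mTORC2 on the other strand, over 7678 bases, and RICTOR had 2979 and 3400 counts. IL11RA shares exons on its own strand with GALT, the galactose-1-phosphate uridylyltransferase gene, at 211 and 222 counts, and with AL162231.3 at 0 and 3 counts. On the other strand it overlaps CCL27, at 2 and 1 counts, over 13 bases. Summed with the genes whose exons it shares, IL11RA had a log2 ratio of 0.21, the same to 2 decimals as its own, and its count is uncertain for that overlap.

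Around the members, 8 lists of pathway genes held 89 symbols, all found, of which 57 were measured. Their median log2 ratio was -0.02, with 26 above 0 and 31 below. Past the size rule was 1 gene in each direction, where 1.31% of all measured genes were past it as higher and 0.994% as lower. The gene past it as higher was SOCS2, which encodes another inhibitor of cytokine signals, best known for restraining growth hormone receptor signalling. SOCS2 had 39 and 132 counts, 2.15 and 7.87 CPM, and was at 3.66-fold (2.54 to 5.37) in the resistant library. SOCS2-AS1 on the other strand had 6 and 9 counts. The gene past it as lower was GRB2, which encodes the adaptor that links activated receptors, gp130 complexes and receptor tyrosine kinases among them, to RAS. GRB2 (chromosome 17, 75318076 to 75405709) had 2918 and 813 counts, 161 and 48.5 CPM, and was 3.32-fold lower (3.07 to 3.59). GRB2 shared no exon with another gene, and 0.211% of measured genes had a ratio as low.

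**Figure D4:**
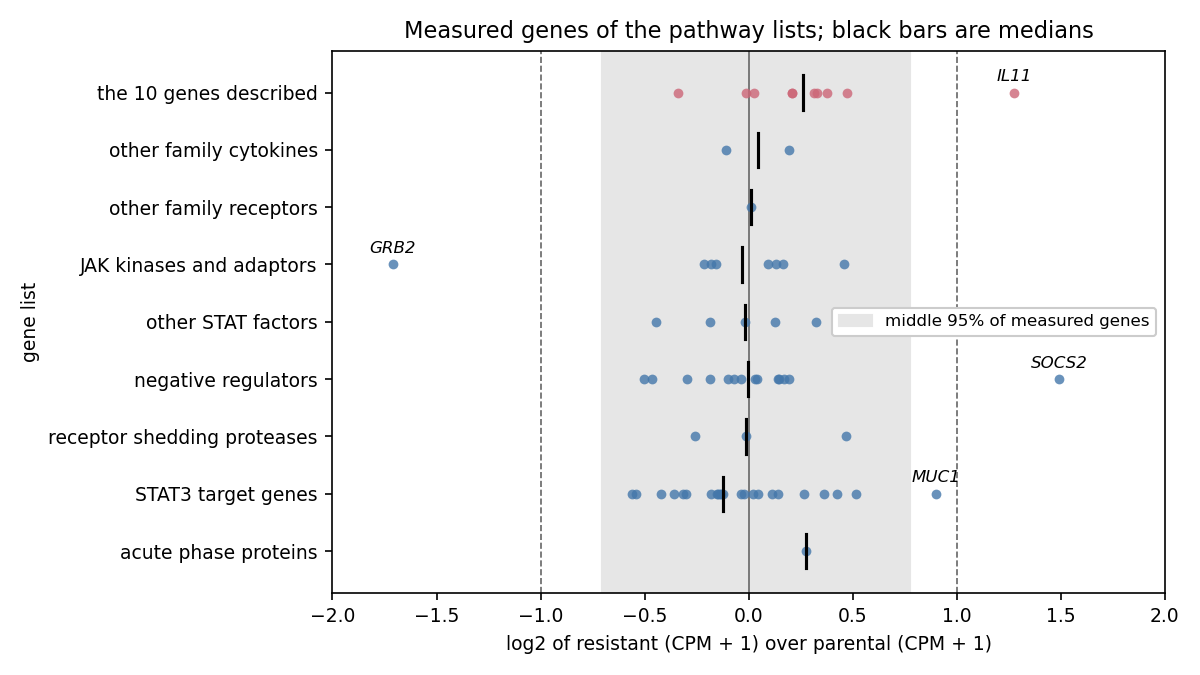
Log2 ratio of resistant over parental CPM plus 1 for the measured genes of each list, one point per gene, with black bars at list medians, dashed lines at the size rule and a grey band for the middle 95% of measured genes. IL11, SOCS2 and GRB2 lie past the dashed lines, and MUC1 lies between the band and the line.

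Of the 7 other cytokine genes and subunits of the family 2 were measured, and OSM, IL27 and IL31 had 0 counts in both libraries. CLCF1, the cardiotrophin-like cytokine gene, had 195 and 166 counts, 0.920-fold (0.744 to 1.14), and CNTF, the ciliary neurotrophic factor gene, 26 and 30 counts, 1.25-fold (0.713 to 2.20). Both share exons with another gene on their strand. With OSM at 0 counts, which by a floor of 3 counts per library allows up to 0.166 parental and 0.179 resistant CPM, the measured ligand genes of the family were LIF, CLCF1, IL11, CNTF and IL6. Per length, CLCF1 at 4.08 and 3.73 FPKM stood above LIF at 2.56 and 3.22 FPKM in both libraries. RAD9A, on the other strand, overlaps CLCF1 over its whole span of 10010 bases and had 260 and 274 counts. With strand use in the counting not known, the level of CLCF1 is uncertain for that overlap. Of the 3 other receptor genes IL27RA alone was measured, at 442 and 412 counts, 1.01-fold (0.879 to 1.15).

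Among 8 Janus kinase and adaptor genes, all measured, 4 had ratios above 0 and 4 below, with GRB2 the 1 past the size rule and a median of -0.03. JAK1, the kinase most tied to gp130, had 3298 and 3260 counts, 1.07-fold (1.02 to 1.12). JAK2 was at 0.852-fold (0.703 to 1.03) and TYK2 at 0.882-fold (0.814 to 0.956). JAK3, a kinase of lymphoid cells, had 10 and 19 counts. Of the other STAT genes 5 of 6 were measured and none was past the size rule. STAT2, which carries interferon signals, was at 0.729-fold (0.658 to 0.808), STAT5B at 1.25-fold (1.20 to 1.31), STAT6 at 0.877-fold (0.819 to 0.939) and STAT5A at 1.09-fold (1.002 to 1.19).

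The 16 negative regulators had 14 measured genes, 7 above and 7 below 0, with a median of -0.0030. Apart from SOCS2, past the size rule, the log2 ratios farthest from 0 were those of CISH, another SOCS family gene, at 29 and 14 counts (0.522-fold, 0.255 to 1.02), of SOCS6 at 0.721-fold (0.664 to 0.783) and of SOCS7 at 0.813-fold (0.748 to 0.883). SOCS genes thus stood on both sides by their counting intervals. SOCS2, SOCS3 and SOCS5 (1.11-fold, 1.01 to 1.21) were higher in the resistant library, and SOCS6 and SOCS7 were lower. SOCS5 shares exons with another gene on its strand. Of all measured genes 42.2% had an interval without 1. Of the 3 genes for the shedding of receptor ectodomains, ADAM10 was at 0.834-fold (0.780 to 0.891), ADAM17, the protease best known for releasing the interleukin-6 receptor, at 0.993-fold (0.921 to 1.07) and its partner RHBDF2 at 1.41-fold (1.18 to 1.70).

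Known STAT3 target genes had no member past the size rule. Of 25 listed genes 23 were measured, 9 above and 14 below 0, and their median was -0.12. MUC1, a membrane mucin gene, had the largest ratio at 119 and 220 counts, 1.998-fold (1.59 to 2.52), with a log2 ratio of 0.90. MYC was at 0.646-fold (0.507 to 0.820), KLF4, a pluripotency factor gene, at 0.675-fold (0.580 to 0.785) and CCND1, the cyclin D1 gene, at 1.43-fold (1.37 to 1.501). These genes answer to other pathways too. Acute phase proteins, the hepatocyte output of the pathway, had 11 of 21 genes at 0 counts in both libraries, CRP, HP and FGB among them, and 1 measured member. This was C3, the complement component gene, at 581 and 655 counts, 1.22-fold (1.09 to 1.37).

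In the deposited annotation the KEGG JAK-STAT term held 162 genes, all 10 members among them. Of the other 152 genes 77 were measured, 39 above and 38 below 0, with a median log2 ratio of 0.01. SOCS2 and GRB2 were the 2 of these 77 past the size rule, 1 in each direction. By comparison, 1.31% of all measured genes were past it as higher and 0.994% as lower. IL11, SOCS2 and GRB2 thus made up all 3 called genes of the term.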

How the data were processed

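Messenger RNA libraries of 1 parental and 1 sorafenib-selected culture were compared, grouped by the treatment label. Per the submitters' processing notes, bcl2fastq 2.19, HISAT2 2.0.4, StringTie 1.3.0 and build GRCh38 were used. Not given in the sources used here were the annotation release, counting settings and strand use. The authors deposited whole-number counts per gene, not normalized, and FPKM values, per the file headers. The authors' deposited comparison gives a log2 fold change, which equals the log2 ratio of FPKM, with a p-value and q-value from 1 library against 1 by an unnamed test, and these p-values were not used.

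Counts were scaled to CPM with TMM factors of 1.003 (parental) and 0.997 (resistant, edgeR 4.0.16 in R 4.3.3, no model fitted). Folds are ratios of CPM with Clopper-Pearson 95% intervals of the 2 counts given their sum. Levels have Poisson intervals. A count of 0 allowed up to 3 counts. The log2 ratio used a pseudocount of 1 CPM and so understates differences of genes with low values. A size rule of 1 or -1 stood in for a test. The calculation was tested on simulated Poisson counts with known folds. These follow the model that the intervals assume, so this test does not cover variation between cultures or PCR copies.

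The FPKM length equalled the summed distinct GENCODE 29 exons within 1% for 87.4% of 14758 genes with at least 10 counts in each library. Exon sharing came from GENCODE 29, promoters from RefSeq. Named genes were all members, genes overlapping them, up to 4 measured genes of each list by absolute log2 ratio, and listed cell type markers. JAK1 and SOCS5 were named outside this rule after their values were seen, as were the list genes named at 0 counts and the overlaps of list genes. Some genes that the rule takes were left out of the lists and are not reported here. The members and lists were chosen with earlier results of these data known.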

Additional observations from a re-analysis of the deposited data

How the results depend on the processing

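Neither library has a replicate, so none was left out. No paired analysis was possible because each group has 1 library and no test was made. Of 104 log2 ratios of members under 11 alternative settings, 100 stayed within their counting interval, 4 moved outside it and none changed sign where a call had been made. The 4 were of IL11, at 0.82 on the deposited FPKM with and without a minimum level and 0.70 with a pseudocount of 5, and of IL6, at 0.98 with a pseudocount of 0.1. Part of this tally was fixed in advance. A changed or dropped minimum level cannot move the ratio of a member. Sums over genes that share exons can move only that of IL11RA among the members. A change of sign could be counted only for IL11, the 1 member called. Of 88 medians of the pathway lists 86 stayed within, and 2 moved outside, the medians of their members' interval bounds. The count of members past the size rule as higher was 0 in place of 1 under those 3 settings of IL11, because a pseudocount that is large against the level shrinks the ratio of a gene with few counts. It was 1 under the other 8, among them DESeq2 size factors (DESeq2 1.42.0), totals without TMM and the deposited FPKM with a pseudocount of 0.1. The count of members past it as lower was 0 under all 11. Over all measured genes, 192 were higher and 146 lower. The deposited FPKM, with or without a minimum level, gave 90 higher and 78 lower, a pseudocount of 5 gave 83 and 68, and a pseudocount of 0.1 gave 431 and 315. The deposited FPKM without a minimum level, and that with a pseudocount of 0.1, were added after the data were seen. The counting intervals of the fold are widest for IL6, IL11 and IL11RA.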
